A study of Mus musculus with 39 samples.

Results

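The genes described here are Edem1, Edem2, Edem3, Vcp, Nploc4, Ube2j1, Ube2g2, Faf2 and Ubxn4, a set of 9 that encodes mannosidases and extraction factors of ER-associated degradation (ERAD). They were picked by symbol for their known function, by a rule that uses no measured value although earlier results of these data were known, from the 24421 gene symbols of a count table. All 9 were in the table, and all 9 passed the filter on low counts that left 21752 genes for testing. Bulk RNA was sequenced from MIN6 cells, a β cell line derived from a mouse insulinoma, so every library came from the same transformed line and not from islets. Treated cells received SW016789 at 5 µM, a compound known to raise insulin release, thapsigargin at 100 nM, an inhibitor of the Ca2+ pump of the endoplasmic reticulum (ER) used as an ER stressor, or DMSO vehicle at 0.1%, each for 1, 2, 6 or 24 h. Untreated cells were taken at 0 h as the baseline. There were 13 groups and 39 libraries. Each of 3 independent experiments gave 1 library to every group (n = 3 throughout), and all cells of an experiment were collected together after staggered additions.

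In ERAD, a glycoprotein that fails to fold in the ER is marked, moved back across the ER membrane, ubiquitinated and degraded by the proteasome. The EDEM proteins take mannoses off the glycans of such proteins, which exposes a signal that lectins of the ubiquitin ligase complexes recognise. Membrane-bound and soluble E2 enzymes then supply ubiquitin, and the ATPase p97, brought to the ER by adaptors with a UBX domain, pulls the tagged chain into the cytosol. Several ERAD genes are known targets of the transcription factors XBP1 and ATF6 of the unfolded protein response, and β cells, which make large amounts of proinsulin, depend on this system.

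The genes lie on 7 chromosomes of the mm10 build. Edem1 is at chr6:108828641-108859356 on the plus strand (12 exons), Edem2 at chr2:155701673-155729475 on the minus strand (11 exons) and Edem3 at chr1:151755374-151822328 on the plus strand (20 exons). Vcp is at chr4:42979964-43000507 on the minus strand (17 exons) and Nploc4 at chr11:120379798-120437700 on the minus strand (17 exons). The E2 genes are Ube2j1 at chr4:33031425-33052364 (plus strand, 8 exons) and Ube2g2 at chr10:77622321-77645990 (plus strand, 6 exons). The UBX adaptor genes are Faf2 at chr13:54621784-54664063 (plus strand, 11 exons) and Ubxn4 at chr1:128244181-128279377 (plus strand, 13 exons). Counts were taken over all exons of a symbol, so no exon or isoform is separated.

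Since several ERAD genes are known targets of XBP1 and ATF6, the sequence upstream of the gene starts was searched for elements that these factors are known to bind. RefSeq (GRCm38.p6) gave the 250 bases before the transcript start for the 8 genes other than Ube2g2. The shared core of the unfolded protein response element, TGACGTG, was searched on both strands and matched in 2 of these 8 windows, those of Vcp and Ube2j1, against 1.65% of 32851 windows over all genes. The ER stress response element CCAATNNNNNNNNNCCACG, present in 0.113% of all windows, and its second form ATTGGNCCACG, present in 0.0304%, matched in 0 of the 8. The short part of both, CCACG, matched in 4 of the 8 windows and in 28.3% of all windows. TGATGNAA, an element bound by C/EBP and ATF factors, matched in the window of Faf2 and in 3.45% of all windows. The windows of Vcp and Ube2j1 are shown because they hold the rarer core, and that of Edem1 because it holds only the short part. Capitals mark TGACGTG and CCACG on either strand, which overlap in Vcp and Ube2j1. The windows are chr4:43000508-43000757 (minus strand) for Vcp, chr4:33031130-33031379 (plus strand) for Ube2j1 and chr6:108828391-108828640 (plus strand) for Edem1.
Vcp: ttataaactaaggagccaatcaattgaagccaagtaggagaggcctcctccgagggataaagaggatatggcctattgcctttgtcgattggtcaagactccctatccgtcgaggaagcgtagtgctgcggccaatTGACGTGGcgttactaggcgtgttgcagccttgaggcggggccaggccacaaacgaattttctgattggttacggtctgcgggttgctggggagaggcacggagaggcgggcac
Ube2j1: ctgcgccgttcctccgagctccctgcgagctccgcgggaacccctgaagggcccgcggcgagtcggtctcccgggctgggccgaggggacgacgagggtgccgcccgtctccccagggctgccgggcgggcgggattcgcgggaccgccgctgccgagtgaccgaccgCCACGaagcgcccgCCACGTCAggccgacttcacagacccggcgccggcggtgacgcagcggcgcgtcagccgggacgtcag
Edem1: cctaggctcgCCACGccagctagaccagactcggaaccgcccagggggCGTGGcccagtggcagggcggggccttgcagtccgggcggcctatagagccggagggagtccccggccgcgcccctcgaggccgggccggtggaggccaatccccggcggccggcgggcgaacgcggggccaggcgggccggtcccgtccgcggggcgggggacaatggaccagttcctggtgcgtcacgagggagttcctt
A match is a description of these letters, and binding at these windows was not measured.

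The libraries held 9150443 to 47616080 counts on genes (median 32153770), and the member with the fewest reads, Ube2g2, had between 268 and 3017 counts in a library. Reads that fell between genes made up 6.17 to 36.6% of a library's high-quality reads (median 7.55%). This share was above 25% in 6 libraries, namely SW016789 1 h replicate 1, SW016789 6 h replicate 1, thapsigargin 1 h replicate 2, thapsigargin 2 h replicates 1 and 3, and thapsigargin 6 h replicate 2. Of 17 β cell markers, all 17 averaged at least 1 CPM (counts per 1e+06 counts, scaled by TMM) in every group, Ins1 and Ins2 among them. Markers of stromal, endothelial and immune cells summed to 7.66 to 141 CPM per library and markers of acinar and ductal cells to 79.8 to 172 CPM, against 20055 to 45370 CPM for the β cell markers.

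Per length, Vcp was the most abundant of the 9 at baseline. Its level was 346 ± 16.8 TPM (counts divided by the exon length of each symbol and scaled to sum to 1e+06, SD, n = 3), followed by Ube2j1 at 163 ± 6.02, Edem1 at 128.4 ± 6.86 and Nploc4 at 93.6 ± 1.30 TPM. These 4 did not overlap each other in any library at baseline. Ubxn4 (68.02 ± 3.73 TPM), Edem3 (61.9 ± 3.21 TPM), Faf2 (59.9 ± 0.454 TPM) and Edem2 (57.99 ± 2.93 TPM) followed, and each overlapped its neighbour in this order. Ube2g2 was lowest at 35.9 ± 2.82 TPM, below every other member in every baseline library. After 24 h of thapsigargin the lower part of the order had changed. Ube2g2 stood at 93.5 ± 7.51 TPM, above Faf2 at 77.6 ± 4.11 TPM in every library, and Edem2 reached 116.5 ± 7.10 TPM, a range that overlapped that of Nploc4 at 122.9 ± 4.40 TPM. At 6 h of SW016789, Edem1 reached 188 ± 3.62 TPM, just below Ube2j1 at 198 ± 4.19 TPM.

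**Figure D1:**
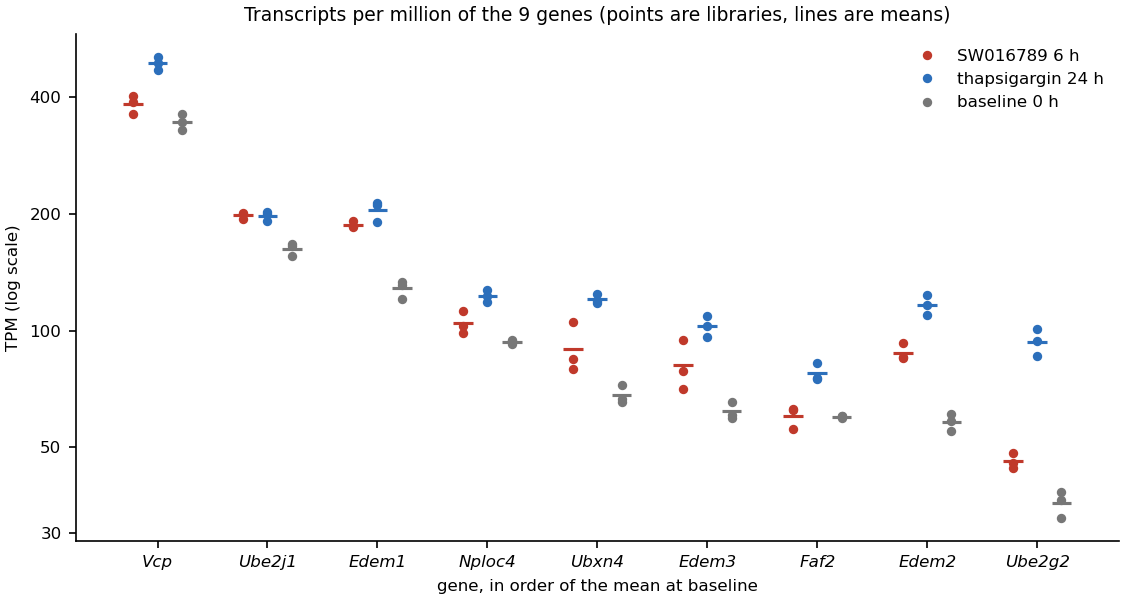
TPM (log scale) of the 9 genes in SW016789 6 h, thapsigargin 24 h and baseline 0 h libraries, with points for libraries and lines for means of 3. Vcp is highest in all 3 groups, and Ube2g2, lowest at baseline, is above Faf2 after 24 h of thapsigargin.

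Across the treatments, most of the 9 genes had their largest increase over DMSO at 6 h of SW016789 or at 24 h of thapsigargin. A gene was called at an adjusted p below 0.05 by the quasi-likelihood test of edgeR, adjusted over all 21752 genes. Against DMSO of the same time, SW016789 had 0 of the 9 called at 1 h (0.372% of all genes), 1 at 2 h (2.58%), 7 at 6 h (7.04%) and 1 at 24 h (3.01%). Thapsigargin had 0 called at 1 h (0.046%), 0 at 2 h (1.38%), 3 at 6 h (16.8%) and 8 at 24 h (20.7%). Every member called against DMSO was higher in the treated cells. By TPM at baseline, the 9 lay between percentile 74.2 (Ube2g2) and percentile 98.5 (Vcp) of the genes tested. The shares over all genes include genes with far fewer counts, and the part of expression level in these counts of calls was not tested. The median log2 fold change of the 9 was 0.46 at 6 h of SW016789, against 0.12 over all genes, and 0.58 at 24 h of thapsigargin, against 0.07 over all genes. At 6 h of thapsigargin it was 0.14, below the 0.30 of all genes, a median that lies above 0 in a group with 8.23 to 33.95% intergenic reads. Of the counts of 0, no member reached even an unadjusted p below 0.05 at 1 h of either compound, and DESeq2 called 0 there. At 2 h of thapsigargin, 3 members had an unadjusted p below 0.05 and DESeq2 called 2. Both compounds were set against the same DMSO libraries, so their comparisons are not independent. Fewer cells of a kind and less RNA per cell cannot be told apart in these bulk samples.

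**Figure D2:**
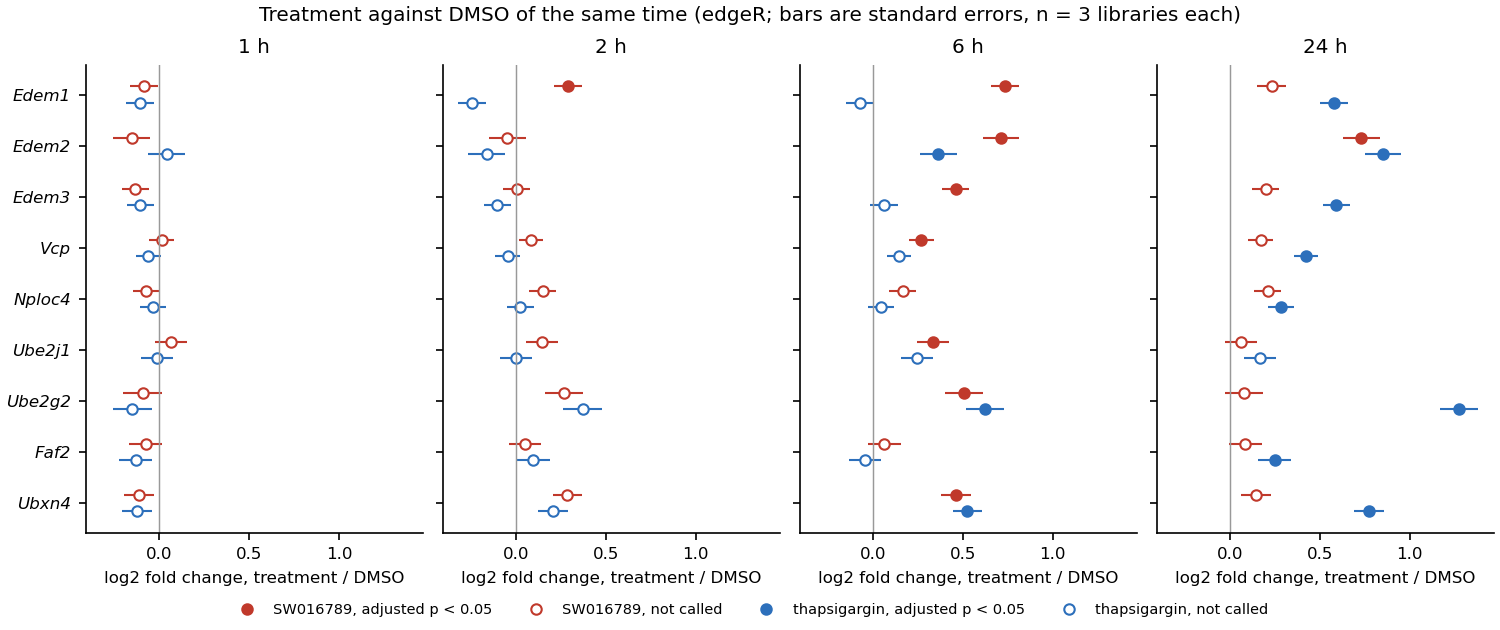
Log2 fold change of each gene against DMSO of the same time at 1, 2, 6 and 24 h, for SW016789 (red) and thapsigargin (blue), with standard errors of the edgeR fit (n = 3 libraries each) and filled points where the adjusted p was below 0.05. Filled red points gather at 6 h (7 of 9) and filled blue points at 24 h (8 of 9).

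Edem1 and Edem2 had the largest increases of the 9 at 6 h of SW016789. Edem1, whose product binds and trims misfolded glycoproteins, had 406, 457 and 461 CPM at 6 h of SW016789, against 276, 252 and 269 CPM in DMSO cells. All treated libraries stood above all DMSO libraries, a log2 fold change of 0.73 ± 0.08 (SE), or 1.66-fold, with an adjusted p of 9.5e-09. Thapsigargin libraries of the same time had 269.8, 242 and 246 CPM and overlapped DMSO, with a log2 fold change of -0.07 ± 0.08 (adjusted p = 0.497). Edem1 was also the only member called at 2 h of SW016789, with 324, 304 and 357 CPM, against 272, 252 and 283 CPM in DMSO cells (0.29 ± 0.08, adjusted p = 0.0348). That call was lost without any 1 of SW016789 2 h replicates 1, 2 and 3 and DMSO 2 h replicates 2 and 3 (adjusted p of 0.0776 to 0.473), and the intergenic share was 7.32 to 20.6% in these SW016789 libraries and 6.501 to 17.04% in DMSO. At 2 h of thapsigargin Edem1 had its lowest group mean, 227 ± 10.9 CPM (SD, n = 3), with 231, 234 and 214 CPM in the libraries, all below the DMSO range. This difference of -0.25 ± 0.08 did not pass the test (adjusted p = 0.116), while DESeq2 gave -0.23 and called it (adjusted p = 0.0144). It was -0.24 with the experiment as a block (adjusted p = 0.0642), -0.11 with the intergenic share added (adjusted p = 0.446) and -0.22 without the libraries above 25% intergenic reads, which left 1 thapsigargin library (adjusted p = 0.655). At 24 h the order of the compounds had turned, with 334, 345 and 352 CPM after SW016789, 437, 451 and 426 CPM after thapsigargin and 294, 294 and 292 CPM after DMSO. The thapsigargin difference of 0.58 ± 0.08 was called (adjusted p = 2.66e-07) and the SW016789 difference of 0.23 ± 0.08 was not (adjusted p = 0.126), although its 3 libraries all lay above DMSO.

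Edem2, which in human cells is known for the first mannose trimming step of ERAD, was the one member called in both compounds at both late times. At 6 h it had 76.9, 81.8 and 83.02 CPM in SW016789 cells, against 47.8, 51.5 and 48.5 CPM in DMSO cells (0.71 ± 0.10, 1.64-fold, adjusted p = 3.27e-06). At 24 h the SW016789 libraries still had 93.7, 93.2 and 82.3 CPM, against 51.6, 59.7 and 50.9 CPM in DMSO (0.73 ± 0.10, adjusted p = 5.8e-06), and this was the only member called at 24 h of SW016789 by edgeR without a block. DESeq2 also called Edem1 (adjusted p = 0.00721), Edem3 (0.0481), Vcp (0.028) and Nploc4 (0.0109) there, all higher in SW016789 cells. The edgeR fit with the experiment and the intergenic share called the same 4, with adjusted p of 0.00351 for Edem1, 0.0158 for Edem3, 0.0428 for Vcp and 0.0306 for Nploc4. Between 6 and 24 h the Edem2 difference from DMSO changed by 0.02 ± 0.14 (adjusted p = 1). In thapsigargin cells Edem2 had 65.2, 62.9 and 61.98 CPM at 6 h, a log2 fold change of 0.36 ± 0.10 with an adjusted p of 0.0109. This call was lost without DMSO 6 h replicate 1 or 3 or thapsigargin 6 h replicate 1, 2 or 3 (adjusted p of 0.0507 to 0.274), while the intergenic share of the thapsigargin 6 h group was 8.23 to 33.95% and that of DMSO 6.80 to 7.55%. Without the libraries above 25% intergenic reads the difference was 0.32 (adjusted p = 0.0201). At 24 h of thapsigargin it reached 100.4, 96.6 and 95.5 CPM, its highest group (0.85 ± 0.10, 1.80-fold, adjusted p = 1.86e-08). At 1 h the SW016789 library of replicate 1, which had 36.6% intergenic reads, held the lowest Edem2 value of the series at 34.6 CPM, against 50.97 and 49.8 CPM in the other 2 libraries of that group.

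Edem3, the third family member and the one with the longest summed exons of the 9, had 225, 218 and 198 CPM at 6 h of SW016789, against 165, 146 and 156 CPM in DMSO cells. These ranges did not overlap (0.46 ± 0.08, adjusted p = 4.74e-05). In thapsigargin cells at 6 h it had 184, 154 and 147 CPM, with 1 library above the other 2 and an overlap with DMSO (0.06 ± 0.08, adjusted p = 0.571). The intergenic share was 8.23% in the library at 184 CPM, 33.95% in that at 154 CPM and 20.2% in that at 147 CPM. At 24 h of thapsigargin it had 254, 246 and 242 CPM, against 176, 157 and 159 CPM in DMSO cells (0.59 ± 0.08, 1.51-fold, adjusted p = 1.09e-07). SW016789 cells had 192, 185 and 188 CPM at that time, all above DMSO, but the difference of 0.20 ± 0.08 was not called (adjusted p = 0.231). Earlier, at 1 h, the libraries of SW016789 (138, 136 and 151 CPM) and thapsigargin (150.4, 129.96 and 152 CPM) all lay below those of DMSO (159, 154 and 153 CPM). Neither difference was called (adjusted p = 0.382 for SW016789 and 0.527 for thapsigargin), and the intergenic share reached 36.6% in the SW016789 group and 33.2% in the thapsigargin group.

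**Figure D3:**
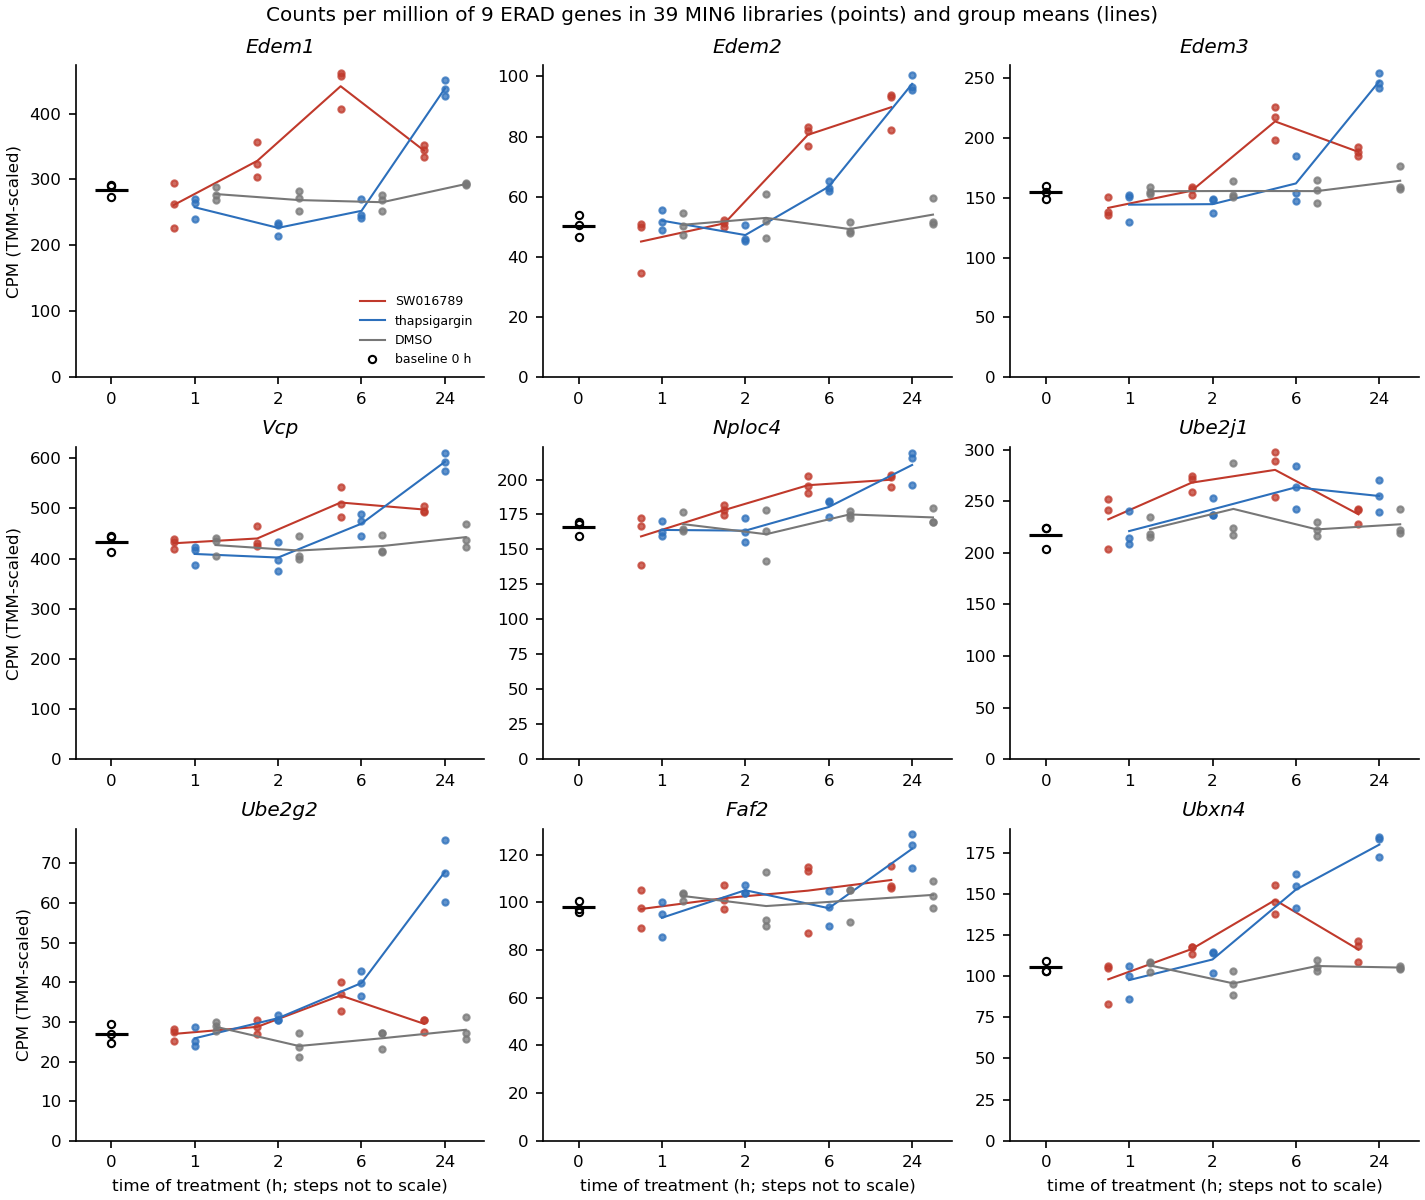
TMM-scaled CPM of the 9 genes in each of the 39 libraries (points) against time of treatment, with lines through the means of SW016789 (red), thapsigargin (blue) and DMSO (grey) groups of 3 and baseline libraries as open circles. DMSO means stay close to baseline, SW016789 means of Edem1, Edem3, Vcp, Ube2j1, Ube2g2 and Ubxn4 are highest at 6 h, and thapsigargin means of every gene but Ube2j1 are highest at 24 h.

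Vcp, the gene of the ATPase p97, had smaller fold changes from a high level. It had 483, 543 and 509 CPM at 6 h of SW016789, against 415, 447 and 414 CPM in DMSO cells (0.27 ± 0.07, 1.20-fold, adjusted p = 0.00906). The call was lost without SW016789 6 h replicate 2 or 3 or DMSO 6 h replicate 1 or 3, with an adjusted p of 0.0563 to 0.184. After 24 h of thapsigargin Vcp had 576, 611 and 593 CPM, against 437, 469 and 422 CPM in DMSO cells, with no overlap (0.42 ± 0.07, adjusted p = 7.42e-06). At 6 h of thapsigargin the difference was 0.14 ± 0.07 and was not called (adjusted p = 0.119). DESeq2 called it (0.18, adjusted p = 0.00817), as did the edgeR fit with the experiment and the intergenic share (0.21, adjusted p = 0.00698). The block alone did not (adjusted p = 0.0909). Nploc4, the gene of the Npl4 cofactor that binds ubiquitin chains on p97, moved within a narrower range. It was called only at 24 h of thapsigargin, with 196, 216 and 219 CPM, against 169, 179 and 169.9 CPM in DMSO cells (0.28 ± 0.07, adjusted p = 0.00386). This call was lost without DMSO 24 h replicate 1 or 3 or thapsigargin 24 h replicate 2 or 3 (adjusted p of 0.076 to 0.123). The SW016789 libraries of Nploc4 were above all DMSO libraries at 6 h (0.16 ± 0.07, adjusted p = 0.195) and at 24 h (0.21 ± 0.07, adjusted p = 0.158) without passing the test. DESeq2 called both differences (adjusted p = 0.0385 at 6 h and 0.0109 at 24 h). The edgeR fit with the experiment and the intergenic share also called both (0.049 and 0.0306), while the block alone called neither (0.182 and 0.0985).

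Of the E2 genes, Ube2g2, which encodes a soluble E2 that is known to work with the ER ligase gp78, showed the largest change of any member. It had 60.2, 67.4 and 75.95 CPM at 24 h of thapsigargin, against 25.8, 31.1 and 27.1 CPM in DMSO cells, so that the lowest treated library held more than the highest DMSO library by a wide margin. The log2 fold change was 1.28 ± 0.11, or 2.42-fold, with an adjusted p of 4.06e-12. At 6 h it had 32.7, 40.1 and 37.1 CPM in SW016789 cells, 42.9, 36.6 and 39.9 CPM in thapsigargin cells and 23.3, 27.2 and 27.2 CPM in DMSO cells. Both differences were called, at 0.51 ± 0.11 for SW016789 (adjusted p = 0.00115) and 0.62 ± 0.11 for thapsigargin (adjusted p = 3.75e-05). After 24 h of SW016789 it overlapped the DMSO range again, at 30.6, 27.4 and 30.5 CPM (0.08 ± 0.11, 95% interval -0.13 to 0.28). At 2 h of thapsigargin, all 3 libraries (31.7, 30.5 and 30.6 CPM) stood above DMSO (23.6, 21.02 and 27.1 CPM), a difference of 0.37 ± 0.11 that missed the threshold (adjusted p = 0.074) and passed it with the experiment as a block (adjusted p = 0.0436) and without DMSO 2 h replicate 1 (adjusted p = 0.0469). The thapsigargin 2 h libraries had 20.96 to 30.9% intergenic reads, and the difference was 0.45 with the experiment and the intergenic share in the model (adjusted p = 0.0229). It was 0.33 without the libraries above 25% intergenic reads, which left 1 thapsigargin 2 h library (adjusted p = 0.677), and DESeq2 called it (adjusted p = 0.00892).

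Ube2j1, the E2 anchored in the ER membrane, was called only at 6 h of SW016789. It had 254, 298 and 289 CPM there, against 222, 229.8 and 216 CPM in DMSO cells (0.33 ± 0.09, adjusted p = 0.0132), a call lost without SW016789 6 h replicate 2 or 3 or DMSO 6 h replicate 1 or 3 (adjusted p of 0.0516 to 0.175). Thapsigargin libraries of 6 h had 284, 242 and 264 CPM, all above DMSO. Their difference of 0.24 ± 0.09 missed the threshold (adjusted p = 0.0537) and passed it with the experiment as a block (adjusted p = 0.0191). At 24 h Ube2j1 had 239, 255 and 271 CPM after thapsigargin, against 219, 242 and 222 CPM in DMSO cells, and these ranges overlapped (0.16 ± 0.09, 95% interval -0.01 to 0.34). Ube2j1 was the only member not called at that time by edgeR without a block. The fit with the experiment and the intergenic share called it (0.17, adjusted p = 0.0324), and DESeq2 did not (adjusted p = 0.135). DMSO 2 h replicate 2 stood apart from its group for this gene, with 287 CPM beside 217 and 224 CPM.

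Of the UBX adaptor genes, Ubxn4, which encodes an ER membrane protein that binds p97, was called in both compounds at 6 h. It had 155, 145 and 138 CPM in SW016789 cells, 162, 141 and 155 CPM in thapsigargin cells and 109.7, 105.4 and 103.3 CPM in DMSO cells. The log2 fold changes were 0.46 ± 0.08 (adjusted p = 0.000136) for SW016789 and 0.52 ± 0.08 (adjusted p = 1.12e-05) for thapsigargin. At 24 h of thapsigargin it had 172, 184 and 183 CPM, against 105.9, 105.1 and 104.6 CPM in DMSO cells (0.77 ± 0.08, 1.71-fold, adjusted p = 1.75e-09). After 24 h of SW016789 it had 121.6, 108.4 and 118.3 CPM, and the difference of 0.14 ± 0.08 was not called (adjusted p = 0.636). Already at 2 h of SW016789 all 3 libraries (117.9, 117.8 and 113.6 CPM) lay above DMSO (103.4, 88.3 and 95.1 CPM). This difference of 0.28 ± 0.08 missed the threshold (adjusted p = 0.0559) and passed it with the experiment as a block (adjusted p = 0.0361) and without DMSO 2 h replicate 1 (adjusted p = 0.0155). Faf2, which encodes another ER adaptor of p97, had small fold changes throughout. Its only call was at 24 h of thapsigargin, with 114.5, 128.7 and 124.1 CPM, against 97.5, 109.1 and 102.7 CPM in DMSO cells (0.25 ± 0.09, adjusted p = 0.0473). That call was lost when any 1 of the 6 libraries compared was left out (adjusted p of 0.133 to 0.388), and without the libraries above 25% intergenic reads, none of which belongs to these groups (adjusted p = 0.0894). In SW016789 6 h libraries Faf2 had 86.9, 113.1 and 114.6 CPM, with the low value in the library of 26.5% intergenic reads (0.06 ± 0.09, 95% interval -0.12 to 0.24).

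Set directly against each other, the compounds differed for the 3 EDEM genes at 6 h, and at 24 h for Edem1 and Edem3 in the opposite direction and for 3 other members. At 1 h 0 of the 9 were called between SW016789 and thapsigargin (0.11% of all genes), 0 had an unadjusted p below 0.05 and DESeq2 called 0. At 2 h only Edem1 was called (0.667% of all genes), at 0.53 ± 0.08, higher in SW016789 cells (adjusted p = 4.65e-05). At 6 h 3 of the 9 were called (11.6% of all genes), and these were the EDEM genes, each higher in SW016789 cells. Edem1 differed by 0.81 ± 0.08 (1.75-fold, adjusted p = 2.24e-09), Edem2 by 0.35 ± 0.10 (adjusted p = 0.0185) and Edem3 by 0.40 ± 0.08 (adjusted p = 0.000295). The Edem2 call was lost without SW016789 6 h replicate 2 or 3 or thapsigargin 6 h replicate 2 or 3 (adjusted p of 0.0616 to 0.221), and the Edem3 call without thapsigargin 6 h replicate 2 (adjusted p = 0.0955). For the other 6 members the 95% intervals at 6 h ran between -0.33 for Ube2g2 and 0.29 for Faf2, and none of these 6 was called. At 24 h 5 of the 9 were called (18% of all genes), all lower in SW016789 cells. They were Ube2g2 (-1.20 ± 0.11, adjusted p = 3.29e-11), Ubxn4 (-0.63 ± 0.08, adjusted p = 2.07e-07), Edem3 (-0.39 ± 0.08, adjusted p = 0.000147), Edem1 (-0.35 ± 0.08, adjusted p = 0.000885) and Vcp (-0.25 ± 0.07, adjusted p = 0.00615). The Edem1 call was lost without thapsigargin 24 h replicate 1 (adjusted p = 0.0841) or 2 (0.0761), and that of Vcp without thapsigargin 24 h replicate 1, 2 or 3 or SW016789 24 h replicate 3 (adjusted p of 0.0614 to 0.187). Edem2, called against DMSO in both compounds at 24 h, differed between them by -0.12 ± 0.10 (95% interval -0.32 to 0.08, adjusted p = 0.544).

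**Figure D4:**
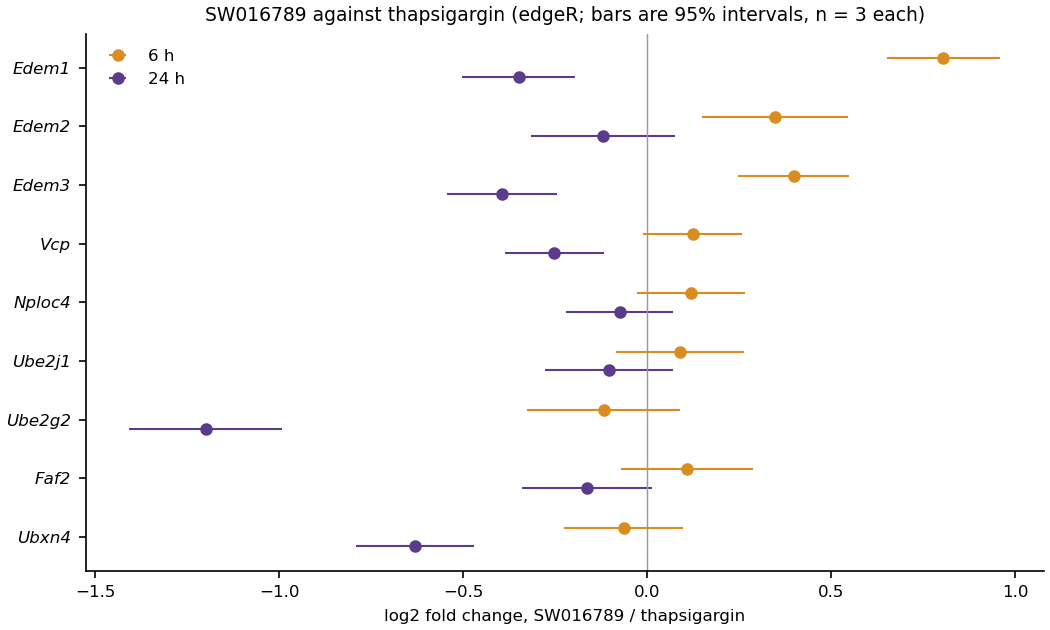
Log2 fold change of SW016789 over thapsigargin for each gene at 6 h (orange) and 24 h (purple), with 95% intervals of the edgeR fit (n = 3 libraries each). The EDEM genes lie to the right of 0 at 6 h, and Ube2g2 lies farthest to the left at 24 h.

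The change of a treatment's effect between times was tested as an interaction. From 2 to 6 h of SW016789, 3 of the 9 rose in their difference from DMSO (1.32% of all genes were called in either direction), namely Edem2 by 0.76 ± 0.14 (adjusted p = 0.00172), Edem3 by 0.46 ± 0.11 (adjusted p = 0.0194) and Edem1 by 0.45 ± 0.11 (adjusted p = 0.0274). The Edem2 call held without any 1 of the 12 libraries concerned. That of Edem1 was lost without SW016789 2 h replicate 1 or 2, SW016789 6 h replicate 2 or 3, DMSO 2 h replicate 2 or 3 or DMSO 6 h replicate 2 or 3 (adjusted p of 0.0772 to 0.265). That of Edem3 was lost without any 1 of SW016789 2 h replicates 1 to 3, SW016789 6 h replicates 1 and 2, DMSO 2 h replicates 2 and 3 and DMSO 6 h replicates 2 and 3 (adjusted p of 0.0506 to 0.124). From 6 to 24 h of SW016789, 1 was called (1.45%), Edem1, whose difference from DMSO changed by -0.50 ± 0.11 (adjusted p = 0.00796). It was lost without SW016789 6 h replicate 2 or 3, DMSO 6 h replicate 3 or any DMSO 24 h replicate (adjusted p of 0.0504 to 0.0953). The other point estimates over that interval lay between -0.43 for Ube2g2 and 0.05 for Nploc4 and were not called. From 2 to 6 h of thapsigargin, 1 was called (3.2%), Edem2 at 0.53 ± 0.14 (adjusted p = 0.0327). This one was lost without any thapsigargin 6 h replicate, thapsigargin 2 h replicate 1 or 3, DMSO 2 h replicate 3 or DMSO 6 h replicate 1 or 3 (adjusted p of 0.0753 to 0.408). It was also lost without the libraries above 25% intergenic reads, at 0.41 (adjusted p = 0.215). From 6 to 24 h of thapsigargin, 4 were called (6.28%), with increases of 0.65 ± 0.15 for Ube2g2, 0.65 ± 0.11 for Edem1, 0.53 ± 0.11 for Edem3 and 0.49 ± 0.14 for Edem2. Among these, the Edem1 call (adjusted p = 0.000117) held without any 1 of the 12 libraries, that of Ube2g2 (adjusted p = 0.0039) was lost without thapsigargin 6 h replicate 2 (adjusted p = 0.0691), and that of Edem3 (adjusted p = 0.00115) without thapsigargin 6 h replicate 2 (0.0724) or 24 h replicate 1 (0.0582). The Edem2 call (adjusted p = 0.0313) was lost without any thapsigargin or DMSO library of 6 or 24 h other than thapsigargin 6 h replicate 1, DMSO 6 h replicate 1 and DMSO 24 h replicate 2 (adjusted p of 0.0639 to 0.199).

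Over the time course as a whole, tested with 4 degrees of freedom and called at an adjusted p below 0.05 and a largest absolute log2 fold change above 1, thapsigargin had 1 of the 9 called (9.75% of all genes) and SW016789 had 0 (1.16%). The one was Ube2g2 (adjusted p = 5.66e-12). For SW016789 the adjusted p was below 0.05 for 6 members, lowest for Edem1 (2.09e-08) and Edem2 (4.1e-08), but no member reached the fold limit, 8 members had an unadjusted p below 0.05, and DESeq2 with the same fold limit called 0. The vehicle itself left the 9 genes near baseline. DMSO against baseline had 0 of the 9 called at 1 h (0% of all genes), 2 h (0.00919%), 6 h (0%) and 24 h (0%), with 0 at an unadjusted p below 0.05 and 0 by DESeq2, and log2 differences between -0.17 and 0.16.

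The rest of the pathway was described from lists of genes with the 9 left out. These counts stand beside shares called over all genes of 7.04% at 6 h and 3.01% at 24 h of SW016789, and 16.8% at 6 h and 20.7% at 24 h of thapsigargin. Of 17 members of the Hrd1 and other ERAD ligase complexes, 7 were higher and 0 lower at 6 h of SW016789 and 7 higher and 2 lower at 6 h of thapsigargin, and at 24 h these counts were 7 and 0 for SW016789 and 10 and 2 for thapsigargin. Herpud1, a scaffold of the Hrd1 complex, rose by 1.81 ± 0.11 at 6 h of SW016789 (adjusted p = 1.13e-14) and by 1.69 ± 0.11 at 6 h of thapsigargin (adjusted p = 3.73e-14). Derl3, a Derlin of the retrotranslocation channel, rose by 2.71 ± 0.21 at 6 h of SW016789 (adjusted p = 2.17e-12), and Derl1 rose by 0.76 ± 0.09 at 6 h of thapsigargin (adjusted p = 7.27e-08). Of 35 other p97 and ubiquitin extraction factors, 6 were higher and 1 lower at 6 h of SW016789, 8 higher and 2 lower at 6 h of thapsigargin, 2 higher and 0 lower at 24 h of SW016789, and 10 higher and 1 lower at 24 h of thapsigargin. Their median log2 fold change was highest at 24 h of thapsigargin, at 0.16. Those with the largest changes were Vimp, which anchors p97 at the ER membrane (0.88 ± 0.11 at 6 h of SW016789 and 0.99 ± 0.11 at 6 h of thapsigargin), and the rhomboid protease gene Rhbdd1 (0.71 ± 0.09 for SW016789 and 0.95 ± 0.09 for thapsigargin).

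In the list of N-glycan trimming and lectin folding, which neighbours the EDEM genes in function, 8 of 13 were higher and 1 lower at 6 h of SW016789. In thapsigargin cells at 6 h, 1 was higher and 1 lower, a share near that of all genes. Set directly against thapsigargin at 6 h, 8 of the 13 were higher in SW016789 cells and 0 lower (11.6% of all genes called). At 24 h, 8 were higher and 0 lower after SW016789 (median log2 fold change 0.45), and 10 were higher and 1 lower after thapsigargin (median 0.50). Calr, the lectin chaperone calreticulin, rose by 1.05 ± 0.08 at 6 h of SW016789 (adjusted p = 1.25e-12) and Pdia3, an oxidoreductase that works with it, by 0.91 ± 0.09 (adjusted p = 4.72e-10). At 6 h of thapsigargin, Man1c1, a Golgi mannosidase gene, was lower at -0.45 ± 0.09 (adjusted p = 0.000338) and Txndc11, whose product binds EDEM proteins in human cells, was higher at 0.30 ± 0.09 (adjusted p = 0.019). Of 14 known targets of IRE1/XBP1 and ATF6, 14 were higher at 6 h of SW016789, with a median log2 fold change of 1.14 (0.12 over all genes), and 7 at 6 h of thapsigargin, with a median of 0.26 (0.30 over all genes). At 6 h of thapsigargin 8.06% of all genes were called higher, and the intergenic share was 8.23 to 33.95%. The median of all genes includes genes with few reads. There, 16 acinar and ductal markers had a median of 4.16, with 2 called higher and 1 lower. At 24 h, 13 were higher after SW016789 and 14 after thapsigargin. Creld2 (2.08 ± 0.10, adjusted p = 3.82e-17) and Hspa5, the ER chaperone BiP (1.79 ± 0.10, adjusted p = 7.6e-16), changed most at 6 h of SW016789, and Dnajb9 (1.36 ± 0.11, adjusted p = 4.28e-12) and Xbp1 itself (0.73 ± 0.10, adjusted p = 4.83e-07) at 6 h of thapsigargin.

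Some markers of the cell type were lower with each compound. Of 17 β cell markers, 14 were lower and 0 higher at 24 h of thapsigargin and 14 lower at 6 h, while their summed level was 20055 to 21174 CPM in thapsigargin 24 h libraries and 36779 to 45370 CPM in DMSO 24 h libraries. In SW016789 cells 5 were lower and 0 higher at 6 h (median log2 fold change -0.19), and 5 lower and 0 higher at 24 h (median -0.26). Over all genes, 8.73% were called lower at 6 h and 10.7% at 24 h of thapsigargin. For SW016789 these shares were 2.85% at 6 h and 1.06% at 24 h. Markers of other islet cells summed to 83.7 to 89.5 CPM in thapsigargin 24 h libraries and 343 to 359 CPM in DMSO 24 h libraries. Only 3 of these 9 markers averaged at least 1 CPM in each of the groups, and 1 of the 9 was called lower and 0 higher. At 24 h, stromal, endothelial and immune markers summed to 14.4 to 17.6 CPM in thapsigargin libraries and 11.03 to 14.1 CPM in DMSO libraries, and 1 of these 18 markers was without a read in each group. The intergenic share was 6.48 to 8.86% in thapsigargin 24 h libraries and 6.55 to 7.15% in DMSO 24 h libraries. In thapsigargin 6 h libraries those markers summed to 16.9 to 82.98 CPM, against 13.3 to 16.2 CPM in DMSO cells, and the part of this in the 6 h values was not tested. Without the libraries above 25% intergenic reads, the number of members called stayed 7 at 6 h of SW016789 and 3 at 6 h of thapsigargin.

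Across the 13 group means of log2 CPM, the 9 genes did not all share a pattern. As a description over 13 points that share experiments and libraries, the highest correlation between members was that of Edem3 and Vcp (r = 0.96), and those of Nploc4 and Edem2 and of Ube2g2 and Ubxn4 both came to r = 0.94. Edem1 and Ube2g2 were less alike (r = 0.62), and Ube2j1 had r between 0.33 with Faf2 and 0.70 with Ubxn4. Among the 9929 other genes that averaged 10 CPM or more, the genes most like each member were Man1a (r = 0.96), Tmem56 (0.96) and Pdcd6ip (0.96) for Edem1, Uggt1 (0.99), Rpn1 (0.99) and Yipf2 (0.98) for Edem2, and Kars (0.98), Mettl9 (0.97) and Wfs1 (0.97) for Edem3. For Vcp they were Slc35f5 (0.98), Vmp1 (0.98) and Ssr3 (0.98), and for Nploc4 Uggt1 (0.98), Impdh1 (0.97) and Srpr (0.97). For Ube2j1 they were Ern1 (0.95), Etv5 (0.94) and Ddx50 (0.93), and for Ube2g2 Rchy1 (0.98), Arpc5l (0.98) and Nrip1 (0.97). For Faf2 they were Otulin (0.93), Rpl15 (0.92) and Rps18 (0.92), and for Ubxn4 Abce1 (0.99), Lars (0.99) and Fam135a (0.99). Man1a encodes another α-mannosidase, Uggt1 the glucosyltransferase that senses folding, and Ern1 the ER stress sensor IRE1.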

How the data were processed

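MIN6 RNA was sequenced as 2 × 100 base reads. Per the paper's methods the authors aligned reads to mm10 with STAR, counted uniquely mapped pairs per gene with strand-aware featureCounts and deposited raw counts per symbol. Versions in the submitters' processing notes were STAR 2.5.2b for alignment and Subread 1.5.1 for counting. The paper's methods give other, later versions of these tools, and which applied to these counts could not be told. The labels give total RNA with rRNA removal where the methods give an mRNA kit. The 78 columns of normalized values were not used.

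Tests on the raw counts used edgeR 4.0.16 under R 4.3.3 (TMM scaling, filterByExpr by group, quasi-likelihood fit over 13 group means, limma 3.58.1 loaded). Each contrast was adjusted by Benjamini-Hochberg over 21752 genes, and the SE is the absolute log2 fold change divided by the square root of F. Alternatives were DESeq2 1.42.0, its size factors, no filter, the experiment as a block with and without intergenic percent, only the libraries compared, and libraries left out. The replicate numbers pair samples, since each marks 1 experiment of 13 samples. The main fit has no block because the paper's methods name none for its edgeR comparisons, and the block is given as an alternative. The median correlation of same-numbered deviations was 0.0577, against -0.0271 between numbers.

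The members and lists were chosen with earlier results of these data known. In each pathway list the 2 genes with the largest absolute log2 fold change among those called at 6 h were named for each compound, with a mean of at least 1 CPM. No pair of libraries in a group agreed within counting noise (lowest chi-square per degree of freedom 6.26). The edgeR fit was also run on simulated counts for SW016789 against DMSO at 6 h, with changes set in genes averaging at least 1 CPM. It recovered 31 of 66 genes with an absolute log2 change of 0.5, 53 of 67 with 1 and 55 of 67 with 2. Among the unchanged genes there were 3 false calls.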

Additional observations from a re-analysis of the deposited data

Results flagged for a closer look

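The difference from DMSO of 4 of the 9 genes changed between times by the interaction contrast of edgeR, in 9 cases. For SW016789 between 2 and 6 h, the log2 difference from DMSO changed by 0.45 ± 0.11 for Edem1 (adjusted p = 0.0274), 0.76 ± 0.14 for Edem2 (adjusted p = 0.00172) and 0.46 ± 0.11 for Edem3 (adjusted p = 0.0194). Between 6 and 24 h of SW016789 it changed by -0.50 ± 0.11 for Edem1 (adjusted p = 0.00796). For thapsigargin between 2 and 6 h it changed by 0.53 ± 0.14 for Edem2 (adjusted p = 0.0327). Between 6 and 24 h of thapsigargin it changed by 0.65 ± 0.11 for Edem1 (adjusted p = 0.000117), 0.49 ± 0.14 for Edem2 (adjusted p = 0.0313), 0.53 ± 0.11 for Edem3 (adjusted p = 0.00115) and 0.65 ± 0.15 for Ube2g2 (adjusted p = 0.0039). The thapsigargin 2 h libraries had 20.96 to 30.9% intergenic reads and the thapsigargin 6 h libraries 8.23 to 33.95%, against 6.48 to 8.86% at 24 h. With the experiment and the intergenic share in the model all 9 changes were called. Without the libraries above 25% intergenic reads 8 were called, and the Edem2 change between 2 and 6 h of thapsigargin was 0.41 (adjusted p = 0.215).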

How the results depend on the processing

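No member called in the analysis reversed its direction under any alternative, and the count of 7 members at 6 h of SW016789 stayed within 1.5 times under all of them. At 2 h of SW016789, 2 members were called in place of 1 with DESeq2, DESeq2 size factors, the replicate block (with and without intergenic percent) and without libraries above 25% intergenic reads, 0 with only the libraries compared, and 0 to 2 leaving out 1 library. At 24 h of SW016789, 5 were called in place of 1 with DESeq2 and with the block and intergenic percent. At 2 h of thapsigargin, 1 was called in place of 0 with DESeq2 size factors and with the block, 2 with DESeq2 and with the block and intergenic percent, and 0 to 1 leaving out 1 library. At 6 h of thapsigargin, 5 were called in place of 3 with DESeq2, DESeq2 size factors and the block with intergenic percent. Between the compounds, 1 was called at 6 h in place of 3 with only the libraries compared, and leaving out 1 library gave 1 to 3 at 6 h and 3 to 5 at 24 h. For the change of the SW016789 effect, 0 were called from 2 to 6 h in place of 3 with only the libraries compared (1 to 3 leaving out 1 library), and from 6 to 24 h 4 with the block and intergenic percent and 3 with DESeq2 in place of 1 (0 to 1 leaving out 1 library). For thapsigargin, the change from 2 to 6 h had 0 called in place of 1 without libraries above 25% intergenic reads and with only the libraries compared, 2 with DESeq2, and 0 to 1 leaving out 1 library, and that from 6 to 24 h had 1 to 4. The causes of these changes were not tested. The settings that leave libraries out also have fewer samples, and that part was not separated. The replicate block changed 3 single calls, all gained. DESeq2 size factors shifted the median of all genes by at most 0.03 (log2). Groups of 3 and total counts of 9150443 to 47616080 limited what could be detected.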
